A study of Mus musculus with 12 samples.

Results

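The genes described here are 10 imprinted genes, Igf2, H19, Cdkn1c, Phlda2, Igf2r, Peg3, Mest, Grb10, Dcn and Snrpn, measured in intestine and intestinal tumors of mice. They were chosen by name, as well known imprinted genes, and each was followed through the Affymetrix MG_U74Av2 probe sets that the array's annotation gives to its symbol. A probe set is a group of short oligonucleotides that together give 1 intensity for a transcript. The annotation gave 14 probe sets to 9 of the 10 genes, out of 8251 genes named on the array. Snrpn had no annotated probe set and was not analysed here. The only H19 probe set, 93028_at, carries the symbols Mir675 and H19 together, so it is given by its ID and both symbols, apart from the counts. Of the other 8 genes, 7 were tested, each by its brightest probe set, and Mest was left out by the filter on dim probe sets.

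The arrays came from male mice aged 91 days. All of them, the controls included, carried Min/+, a mutant Apc allele that gives rise to intestinal adenomas. Normal intestine and tumor were each represented by 6 arrays, and within each tissue by 3 numbered diets whose composition the labels do not give. Each diet held, per tissue, 1 array of genotype Dnmt+/- and 1 of Dnmt+/+. Which Dnmt gene was heterozygous is not in the labels, nor whether an array is 1 animal or whether normal and tumor tissue with the same sample code came from the same mouse. P-values therefore cover the spread among the arrays, which may in part be technical. Both tissues are whole tissue, so fewer cells of a type and less RNA per cell cannot be told apart.

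Imprinted genes are transcribed mainly from the copy inherited from 1 parent. DNA methylation laid down in the germ line marks the parental copies at control regions, and the maintenance methyltransferase Dnmt1 copies that mark when cells divide. In mice Igf2, Peg3, Mest and Snrpn are known as paternally expressed, and H19, Cdkn1c, Phlda2, Igf2r and Grb10 as maternally expressed in most tissues, while Dcn is known as imprinted in placenta. Many of them act in growth: Igf2 is a growth factor, Igf2r a receptor that removes it, Grb10 an adaptor that restrains insulin and IGF receptor signalling, and Cdkn1c an inhibitor of cyclin-dependent kinases. The arrays measured total transcript, neither the parental copy nor methylation.

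Methylation acts on C followed by G, so the promoter windows of tested members with a single entry in the RefSeq table (GRCm38.p6) are shown here with every CG in capitals. Each window runs from 250 bases before the transcript start to 50 after it, on the minus strand in all 3 cases. The Phlda2 window is chr7:143502475-143502774, that of Igf2r is chr17:12769657-12769956 and that of Peg3 is chr7:6730370-6730669.
Phlda2: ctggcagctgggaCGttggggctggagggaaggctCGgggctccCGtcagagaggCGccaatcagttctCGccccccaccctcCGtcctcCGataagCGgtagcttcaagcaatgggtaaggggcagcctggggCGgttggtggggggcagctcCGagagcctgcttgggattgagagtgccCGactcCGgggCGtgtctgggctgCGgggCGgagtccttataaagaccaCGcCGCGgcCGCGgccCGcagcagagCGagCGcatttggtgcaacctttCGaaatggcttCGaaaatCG
Igf2r: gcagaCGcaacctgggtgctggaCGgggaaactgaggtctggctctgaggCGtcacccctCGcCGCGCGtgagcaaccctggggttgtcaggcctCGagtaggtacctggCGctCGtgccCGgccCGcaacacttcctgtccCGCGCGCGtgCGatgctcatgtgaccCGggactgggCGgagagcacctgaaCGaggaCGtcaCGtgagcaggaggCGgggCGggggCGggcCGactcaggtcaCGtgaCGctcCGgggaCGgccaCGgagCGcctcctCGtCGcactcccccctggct
Peg3: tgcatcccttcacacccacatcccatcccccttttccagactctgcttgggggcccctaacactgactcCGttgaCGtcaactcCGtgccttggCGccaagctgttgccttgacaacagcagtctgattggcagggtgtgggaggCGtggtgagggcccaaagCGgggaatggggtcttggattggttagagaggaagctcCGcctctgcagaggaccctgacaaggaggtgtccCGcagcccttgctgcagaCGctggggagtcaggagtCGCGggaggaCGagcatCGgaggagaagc
The motif counted was CG, which reads the same on both strands. The Phlda2 window holds 26 of them, the Igf2r window 34 and the Peg3 window 13, where the median of all 32851 promoter windows in the table is 7. Of all windows, 16.9% hold at least as many as Phlda2, 7.73% as many as Igf2r and 37.9% as many as Peg3. These counts describe the letters and say nothing of whether the sites were methylated in these mice. Windows were found for 7 of the 10 genes, 16 in all.

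H19 is a non-coding RNA from which the microRNA miR-675 is cut. Its mature forms are shown because the only H19 probe set is annotated to both genes, with the seed (bases 2 to 8) in capitals. They lie on the minus strand at chr7:142577112-142577133 (5p) and chr7:142577078-142577099 (3p) of GRCm38.p6.
mmu-miR-675-5p: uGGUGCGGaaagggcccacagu
mmu-miR-675-3p: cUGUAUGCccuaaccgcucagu
The seeds of the 5p and 3p forms differ. The array did not measure mature microRNA, and its value cannot be split between the 2 annotated genes.

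The deposited values are linear intensities. On the 4 arrays of diet #1 between 40.9% and 46% of probe sets carry the value 50, a floor of the file, and the mean intensity was between 306.4 and 402.7, while the 8 arrays of diets #2 and #3 had a mean of 1000 and no such floor. Deposited values are therefore read within a diet, and diet #1 was not tested against the other diets. Even within a diet the arrays differed in scale. The diet #1 mean was 310.9 (normal) and 306.4 (tumor) for Dnmt+/-, and 398.6 and 402.7 for Dnmt+/+. The median was higher in tumor for each diet and genotype, as in diet #2 at 253.7 beside 209.7 (Dnmt+/-) and 259.3 beside 198.8 (Dnmt+/+). Ratios of deposited values are not corrected for these differences. For the tests the arrays were quantile normalized and put on a log2 scale, and a feature (1 probe set for a gene) was called at a Benjamini-Hochberg adjusted p under 0.05 over all 6400 features in limma. Markers of gut epithelium were present on every array. Their summed normalized intensity was 40820 to 47586 in normal intestine and 73142 to 76718 in tumor, with 4 of 7 tested markers higher and 0 lower in tumor. The 4 were Krt18 (5.67-fold), Krt19 (2.22-fold), Krt8 (1.78-fold) and Cldn7 (1.23-fold). Epcam, Cdh1 and Vil1 were not called, and the median log2 difference of the 7 was 0.297, so the sums do not measure epithelial content. All 4 tested adipocyte markers were lower in tumor, with a mean log2 level of 7.026 to 8.534 over the normal arrays and 5.98 to 6.943 over the tumor arrays, and their part in the members' differences was not tested. Precision is limited by the number of arrays.

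**Figure D1:**
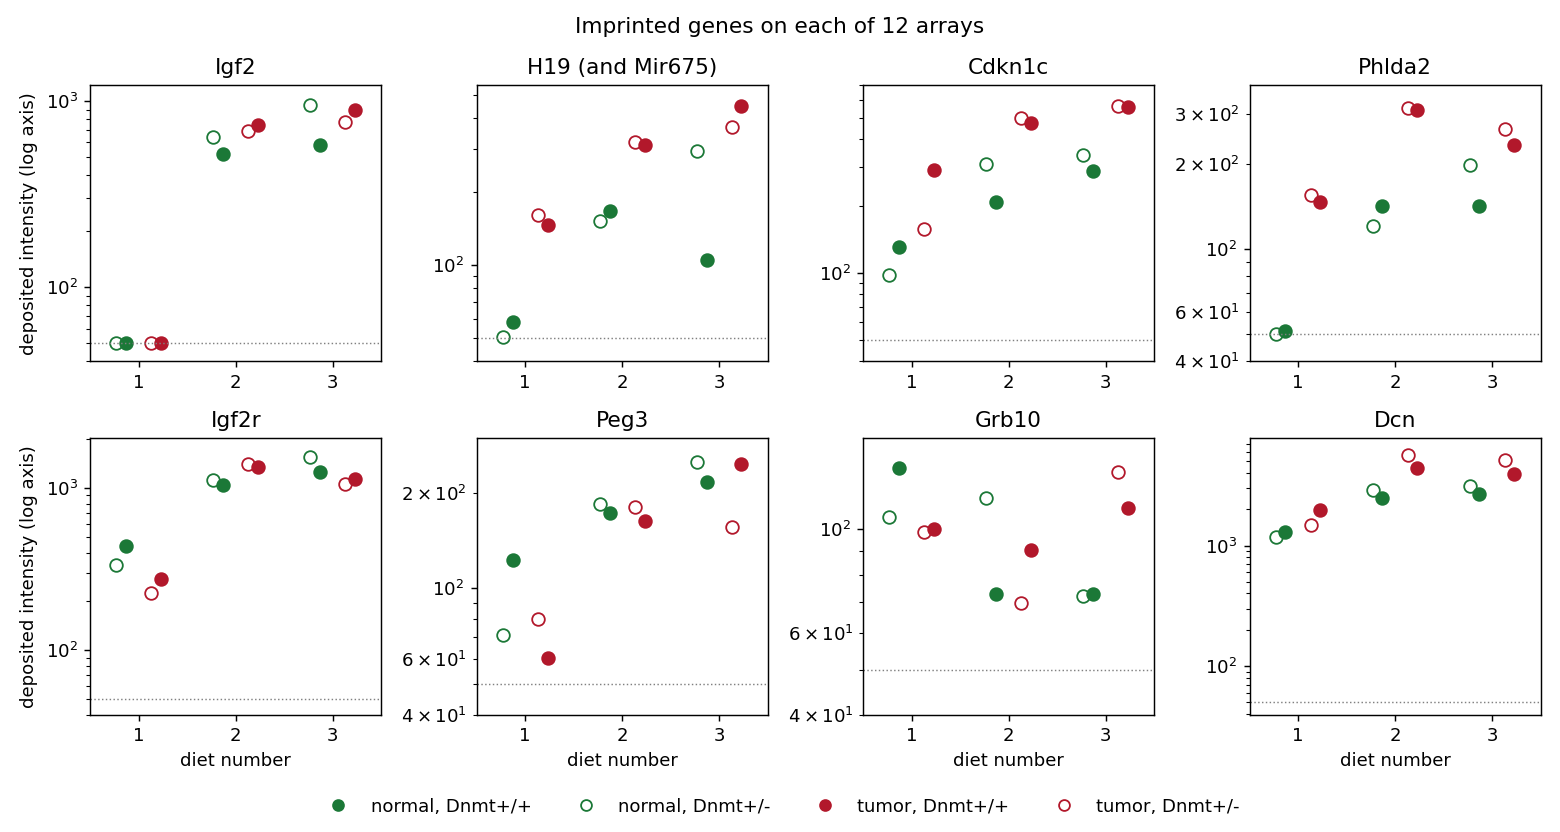
Deposited intensity (log axis) of the 7 tested imprinted genes and of the probe set annotated to Mir675 and H19, on each of 12 arrays, by diet number, tissue (green normal intestine, red tumor) and genotype (open Dnmt+/-, filled Dnmt+/+). Each point is 1 array and the dotted line is the floor of 50 in the diet #1 files. In Dcn, Cdkn1c, Phlda2 and H19 the tumor points lie above the normal points within every diet. The share of all features separated in this way was not counted. Igf2 lies on the floor in all 4 arrays of diet #1.

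The first comparison asked which of these genes differed between tumor and normal intestine. Phlda2, Cdkn1c and Dcn were higher in tumor, by 2.17-fold, 1.61-fold and 1.65-fold, and so was the probe set of Mir675 and H19, by 1.96-fold. Igf2, Igf2r, Peg3 and Grb10 did not pass the test. Thus 3 of the 7 tested genes were called higher and 0 lower, beside 18.2% of all 6400 features called higher and 16.9% called lower. The median difference of the 7 genes was 0.019 on the log2 scale, beside 0.002 for all features. A share of 3 in 7 on so small a set, chosen by name, was not tested against the background. In mice all of the genes that rose, H19 with them, are known from the maternal copy where they are imprinted, as are Igf2r and Grb10, which did not pass.

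Among the genes that rose, Phlda2 encodes a small pleckstrin homology domain protein that limits growth of the mouse placenta. In the values below, the Dnmt+/- array is given first and the Dnmt+/+ array second. The deposited intensity of Phlda2 (probe set 104548_at) in normal intestine was 50 and 51.1 in diet #1, 120.2 and 141.6 in diet #2, and 198 and 141.7 in diet #3. In tumor it was 155.7 and 146.3 in diet #1, 315.2 and 311.1 in diet #2, and 265 and 232.7 in diet #3. Both tumor arrays lay above both normal arrays in each diet, with no overlap. How many of all 6400 features are separated in this way was not counted, for this gene or those below. The ratio of tumor to normal was at least 3.11 in the diet #1 Dnmt+/- pair, whose normal array sits on the floor of the file. In the other 5 pairs it lay between 1.34 and 2.86, the smallest in the diet #3 Dnmt+/- pair. On the normalized log2 scale the difference was 1.12 ± 0.31 (SE; 6 arrays in each tissue; adjusted p = 0.0213 in limma), with tumor higher in 6 of 6 pairs. The size rests partly on diet #1: without its 4 arrays the difference was 0.63 ± 0.16 (limma adjusted p = 0.0247), and without the 4 arrays of diet #2 the call was lost at 1.23 ± 0.47 (adjusted p = 0.118 in limma).

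Cdkn1c encodes p57, an inhibitor of cyclin-dependent kinases and so of the cell cycle. Its deposited intensity (95471_at) in normal intestine was 97.9 and 130.3 in diet #1, 307.6 and 207.9 in diet #2, and 338.8 and 288.3 in diet #3. In tumor it was 158 and 289.3, 497.7 and 471.4, and 564.3 and 560, in the same order. The tumor arrays were again the higher ones in each diet, without overlap. The ratio was 1.61, 1.62 and 1.67 in the 3 Dnmt+/- pairs and 2.22, 2.27 and 1.94 in the 3 Dnmt+/+ pairs. The log2 difference was 0.69 ± 0.12 (SE, n = 6, limma adjusted p = 0.00199), and Cdkn1c passed in every one of the 23 alternative fits. The 7 tested cell cycle genes, among them proliferation markers, were also all called higher in tumor, with a median log2 difference of 0.751; their part in the Cdkn1c difference was not tested.

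Dcn encodes decorin, a small proteoglycan that binds collagen in the extracellular matrix. Its intensity (93534_at) in normal intestine was 1175 and 1290 in diet #1, 2897 and 2479 in diet #2, and 3122 and 2668 in diet #3. In tumor it was 1490 and 1988, 5590 and 4377, and 5112 and 3935. Tumor arrays exceeded normal arrays in each diet without overlap, with ratios from 1.27 to 1.93. The log2 difference was 0.72 ± 0.08 (SE, n = 6, limma adjusted p = 0.000237), with the smallest SE among the members, and it passed in all 23 alternative fits. Its size was smaller with median scaling, at 0.438. Fibroblast markers moved the same way: of 10 tested, 5 were called higher in tumor and 1, Fbln1, lower, with a median difference of 0.621. Their mean log2 level was 9 to 9.395 over the normal arrays and 9.641 to 9.909 over the tumor arrays, and their part in the Dcn difference was not tested. Col1a1, a collagen chain, was 3.11-fold higher and Col3a1 1.53-fold. Col1a2, another collagen chain, at 1.13-fold, and Lum, at 1.28-fold, were not called (adjusted p = 0.214 and 0.0671 in limma).

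The probe set 93028_at, annotated to Mir675 and H19, read 50.6 and 57.9 in normal intestine of diet #1, 151.6 and 166.2 in diet #2, and 293.1 and 104.3 in diet #3. In tumor it read 160.3 and 146.1, 320 and 309.9, and 369.5 and 448. Tumor was higher in all 6 pairs and the tissues did not overlap within a diet. The ratio ranged from 1.26 to 4.29, and both of these extremes lie in diet #3, where the 2 normal arrays differed by 2.81-fold. The log2 difference was 0.97 ± 0.22 (SE, n = 6, limma adjusted p = 0.00759). Without the diet #1 arrays the call was lost at 0.83 ± 0.29 (adjusted p = 0.0639 in limma).

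**Figure D2:**
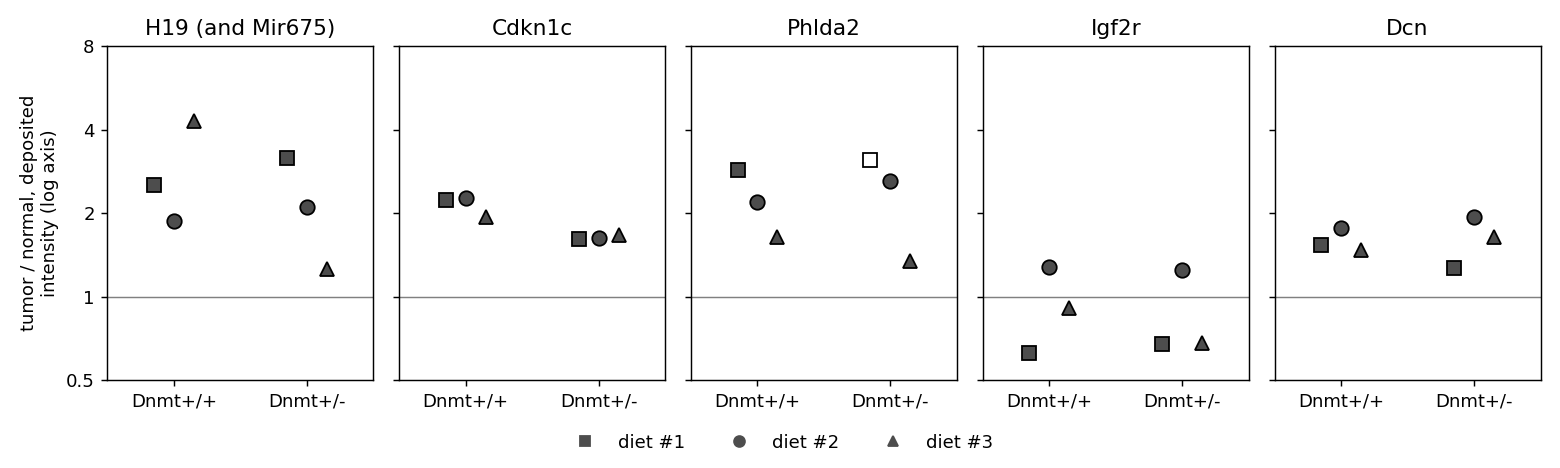
Ratio of tumor to normal deposited intensity (log axis) in each of the 6 pairs of arrays of the same diet and genotype, for H19 (with Mir675), Cdkn1c, Phlda2, Igf2r and Dcn. Squares are diet #1, circles diet #2 and triangles diet #3, and the open square in Phlda2 is a lower bound because its normal array is at the file's floor; every ratio is above 1 in the 4 genes that rose, and Igf2r is above 1 in both diet #2 pairs alone.

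Igf2, the growth factor whose gene neighbours H19, was read by probe set 98623_g_at. In diet #1 all 4 arrays carried the floor value of 50. In normal intestine it read 637 and 518.8 in diet #2 and 956.6 and 578.8 in diet #3, and in tumor 689.2 and 746.5 in diet #2 and 768 and 889.3 in diet #3. The tumor ratio of deposited values was 1.44 and 1.54 in the Dnmt+/+ pairs of diets #2 and #3, and 1.08 and 0.803 in the Dnmt+/- pairs. After normalization the log2 differences were 0.206 and 0.516 in these Dnmt+/+ pairs and -0.117 and -0.445 in the Dnmt+/- pairs. The log2 difference over all arrays was 0.02 ± 0.12 (SE, n = 6, limma adjusted p = 0.919), with 95% limits of -0.247 and 0.285. Without diet #1, whose deposited values are all tied at the floor, it was 0.04 ± 0.17 (limma adjusted p = 0.879).

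Few probe sets that read at least Igf2's lowest value throughout diets #2 and #3 were at the floor throughout diet #1. On the 8 arrays of diets #2 and #3, 3110 probe sets read at least 518.8, the lowest Igf2 value there, on every array. Of these, 11 (0.354%), Igf2 among them, were at 50 on all 4 arrays of diet #1. The 3110 have no upper limit of brightness, while Igf2 read at most 956.6. The 0.354% is therefore not a share among probe sets only as bright as Igf2. The median ratio of diet #1 to the other diets among the 3110 was 0.301. Diet and the format of the file cannot be told apart here, so no difference between diets was drawn from this reading. The second Igf2 probe set, 98622_at, read 6.96 to 48.74 in diets #2 and #3 and was left out by the filter.

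Igf2r, the receptor that takes IGF2 up for degradation and also binds mannose 6-phosphate, did not pass over all diets, and its values are given by diet. Its intensity (95117_at) in normal intestine was 334 and 439 in diet #1, 1126 and 1051 in diet #2, and 1555 and 1248 in diet #3. In tumor it was 225.7 and 275.7, 1407 and 1340, and 1061 and 1132. The ratio was 0.676 and 0.628 in diet #1, 0.682 and 0.907 in diet #3, and 1.25 and 1.28 in diet #2. Over all arrays the log2 difference was -0.32 ± 0.14 (SE, n = 6), short of the threshold (adjusted p = 0.0972 in limma). It passed with median scaling (-0.439, limma adjusted p = 0.024) and without the diet #2 arrays (-0.55, limma adjusted p = 0.0325). Both normal arrays of diet #2 carried exocrine pancreas transcripts, with a summed intensity of 6 markers of 160234 and 171983 beside at most 2716 on any other array; their part in the Igf2r values was not tested.

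Neither Grb10 nor Peg3 passed. Grb10 (93690_at) read 106.2, 135.8, 116.8, 72.67, 71.89 and 72.48 in normal intestine and 98.7, 100, 69.4, 90.25, 132.8 and 111.3 in tumor, by diet from #1 to #3 with Dnmt+/- first. The tissues overlapped in diet #2, tumor was the lower in diet #1 and the higher in diet #3, and the log2 difference was -0.09 ± 0.16 (SE, n = 6, limma adjusted p = 0.69). Peg3, a zinc finger protein gene, read 71.2, 123, 183.9, 172.1, 249.2 and 215.8 in normal intestine and 80.1, 60.2, 180.8, 162.7, 155.7 and 246.1 in tumor by probe set 161316_f_at, in the same order. In Affymetrix naming the f in this ID marks a probe set that can share probes among related sequences. Its log2 difference was -0.43 ± 0.17 (SE, n = 6, limma adjusted p = 0.0756). It passed in 2 of the 12 fits with 1 array left out, at -0.531 without the Dnmt+/- tumor of diet #1 (limma adjusted p = 0.0367) and at -0.542 without the Dnmt+/+ tumor of diet #3 (limma adjusted p = 0.034). Of the other Peg3 probe sets, 101451_at was removed by the filter on dim probe sets, and 96765_at passed it but was dimmer than the one tested. With every probe set and no filter, 101451_at differed by -0.417 (adjusted p = 0.142 in limma) and 96765_at by -0.067 (adjusted p = 0.942 in limma).

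Mest, a hydrolase-fold protein gene of mesoderm, stayed at the bottom of the scale. Its probe set 92607_at was at the floor of 50 on all 4 diet #1 arrays and read between 6.41 and 57.66 on the 8 others. The remaining Grb10 probe sets, 93691_s_at and 95450_at, were as dim, at 3.96 to 48.96 in diets #2 and #3. These values do not show that the transcripts were absent.

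The second comparison asked whether the same genes differed between Dnmt+/- and Dnmt+/+ arrays. None of the 7 tested genes was called, beside 1 of 6400 features (0.0156%) called and 292 at an unadjusted p under 0.05 in limma. The differences, Dnmt+/- minus Dnmt+/+ on the log2 scale, ran from -0.10 ± 0.31 for Phlda2 to 0.25 ± 0.08 for Dcn (SE, n = 6 arrays per genotype). Among the members, Dcn alone had an unadjusted p under 0.05 (0.0156; limma adjusted p = 0.917). Its normalized level was higher in Dnmt+/- in 6 of 6 comparisons matched for tissue and diet. How many of all 6400 features were higher in 6 of 6 was not counted. On the deposited values Dcn was higher in 4 of 6, with ratios of 1.17 to 1.3 in diets #2 and #3. In diet #1 its ratios were 0.91 and 0.75. Deposited ratios are not corrected for scale. The mean intensity of the diet #1 arrays was 310.9 (normal) and 306.4 (tumor) for Dnmt+/-, beside 398.6 and 402.7 for Dnmt+/+.

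The 95% limits of the other members all spanned 0. Igf2 differed by 0.122 (95% limits -0.144 and 0.388), Cdkn1c by 0.029 (-0.238 and 0.296), Igf2r by 0.067 (-0.239 and 0.374), Grb10 by 0.1 (-0.256 and 0.456) and Peg3 by -0.027 (-0.407 and 0.353). The probe set of Mir675 and H19 differed by 0.259 (-0.229 and 0.747). For Igf2 the diet #1 arrays were all at the floor of 50. After normalization these tied values still differed, by 0.128 in normal intestine and 0.081 in tumor. Without diet #1 the Igf2 difference was 0.131 ± 0.166, beside an SE of 0.118 over all arrays. The limits were widest for Phlda2, at -0.802 and 0.609. For Dnmt1 itself, the maintenance methyltransferase, the tested probe set (101445_at) read lower in Dnmt+/- wherever both arrays were above the floor. In diet #2 it read 611.7 beside 776.4 in normal intestine and 1027 beside 1483 in tumor, and in diet #3 491.1 beside 688 and 877.2 beside 1566, Dnmt+/- first. The log2 difference of -0.914 over all arrays missed the threshold (adjusted p = 0.917 in limma). In diet #1, 3 of the 4 arrays were at 50 and the Dnmt+/+ tumor read 251.5. Without that array the difference was -0.478. The second Dnmt1 probe set, 161601_i_at, was left out by the filter on dim probe sets. In diets #2 and #3 it read 12.14 to 132.2, higher in Dnmt+/- in normal intestine and lower in tumor. With every probe set and no filter it differed by 0.046 (adjusted p = 0.954 in limma).

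**Figure D3:**
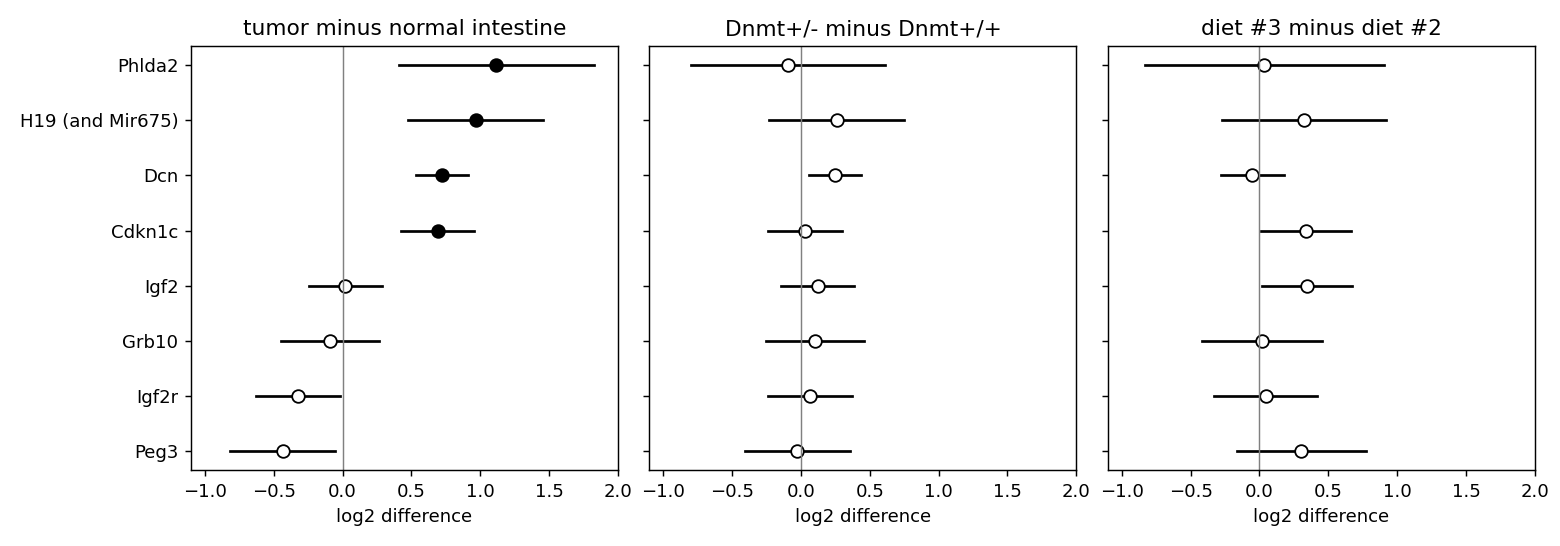
Log2 differences of the 7 tested imprinted genes and the probe set of Mir675 and H19 for tumor minus normal intestine, Dnmt+/- minus Dnmt+/+ and diet #3 minus diet #2. Points are limma estimates, bars their 95% limits and filled points an adjusted p under 0.05 over 6400 features; the 4 filled points are all in the tissue panel.

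The third comparison set diet #3 against diet #2, which share the format of the deposited values. Both normal arrays of diet #2 stood apart by their exocrine pancreas transcripts, whose 6 tested markers had a median difference of -3.638 between these diets; their part in the members' values was not tested. None of the 7 genes was called, beside 274 of 6400 features (4.28%) called; with the sample code as a replicate block 594 features and again 0 of the 7 genes were called. The largest differences were in Igf2, at 0.35 ± 0.15, and Cdkn1c, at 0.34 ± 0.15 (log2, SE, n = 4 arrays per diet; limma adjusted p = 0.206 and 0.213), both higher in diet #3. Peg3 differed by 0.306 and the probe set of Mir675 and H19 by 0.325, and the other 4 genes by -0.05 to 0.045. No difference in these genes between the diets was shown at this number of arrays.

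Whether the tumor difference itself depended on genotype or diet was tested with interaction terms. For genotype 0 of 6400 features (0%) passed in limma, with 179 at an unadjusted p under 0.05, and 0 of the 7 genes. The interaction ran from -0.444 ± 0.199 for Igf2 to 0.578 ± 0.633 for Phlda2 (SE, log2; limma adjusted p = 1 for both). A negative value means a smaller tumor excess in Dnmt+/-, as in the Igf2 ratios given above. For Phlda2 it became -0.029 without the diet #1 arrays, among which the Dnmt+/- normal array is at the file's floor.

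For diet 83 of 6400 features (1.3%) passed and 0 of the 7 genes. The smallest unadjusted p-values among them were those of Igf2r (0.0112; limma adjusted p = 0.227), Grb10 (0.0342; limma adjusted p = 0.339) and Phlda2 (0.0484; limma adjusted p = 0.38). The mean tumor difference of Igf2r on the normalized log2 scale was -0.695 in diet #1, 0.132 in diet #2 and -0.406 in diet #3. Without the Dnmt+/+ normal array of diet #1, Phlda2 passed (limma adjusted p = 0.026), in a fit that called 222 features and in which the only normal value of diet #1 was at the file's floor of 50.

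Igf2, H19, Cdkn1c and Phlda2 lie in 1 stretch of mouse chromosome 7 that holds neighbouring imprinted domains, each with its own control region. The RefSeq table holds 37 genes from H19 to Osbpl5, of which 12 were tested. These 12 are given here in their order in that table, an arrangement chosen after the values of the members were seen. From H19, at 0.968, came Igf2 at 0.019, Ascl2 at 0.499, Tspan32 at -0.056, Cd81 at -0.134 and Tssc4 at 0.086 (log2 tumor difference). After them came Kcnq1, a potassium channel gene, at 0.305, Cdkn1c at 0.69, Slc22a18 at -0.02, Phlda2 at 1.118, Nap1l4 at 0.046 and Osbpl5 at 0.453. H19, Kcnq1, Cdkn1c and Phlda2 passed in limma (adjusted p for Kcnq1 = 0.0381, by 1 of its 2 probe sets), beside 18.2% of all 6400 features called higher in tumor. Of these genes only Kcnq1 and Cdkn1c were next to each other among the tested genes. Between Cdkn1c and Phlda2 lay Slc22a18, whose 95% limits were -0.324 and 0.284. Ascl2, a transcription factor gene of intestinal stem cells, and Osbpl5 did not pass (limma adjusted p = 0.238 and 0.159).

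**Figure D4:**
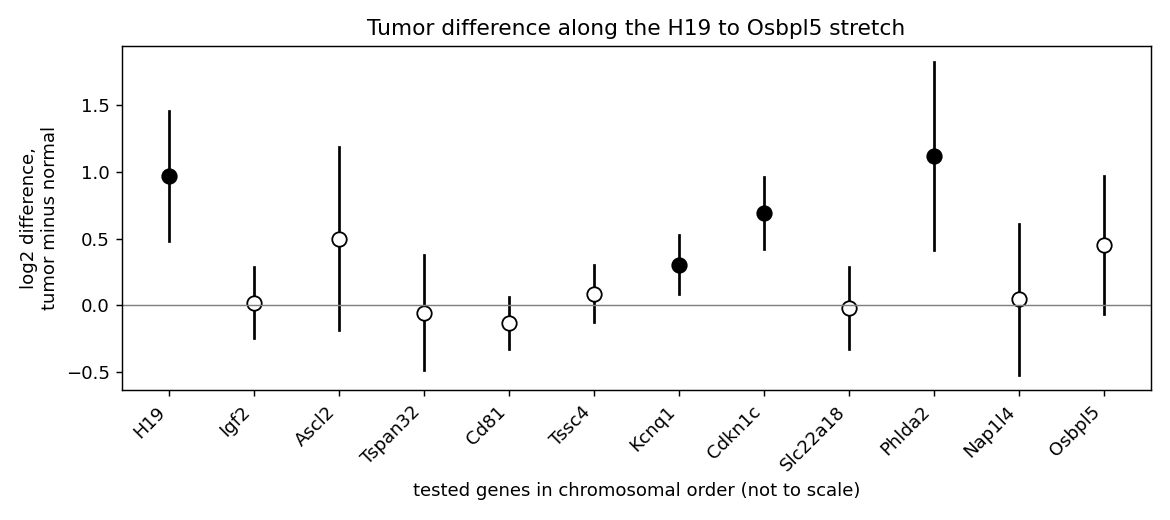
Log2 difference of tumor minus normal intestine for 12 tested genes in their order from H19 to Osbpl5 on mouse chromosome 7, evenly spaced and not to scale. Points are limma estimates, bars their 95% limits and filled points an adjusted p under 0.05; the filled points are H19, Kcnq1 (its tested probe set), Cdkn1c and Phlda2, with Slc22a18 near 0 between the last 2.

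Of 59 other imprinted genes listed, 35 were on the array and 19 were tested. In tumor 2 were called higher and 3 lower, beside 18.2% of all 6400 features called higher and 16.9% called lower. The median difference of the 19 was 0.046. H13, which encodes a signal peptide peptidase, rose by 0.625 ± 0.091 by probe set 96117_r_at (log2, SE, n = 6, limma adjusted p = 0.000868). Its second probe set, 96116_at, was not tested. That one was at 50 in diet #1 and read 3.56 to 49.63 in diets #2 and #3. The tested Kcnq1 probe set was the other called higher. For Kcnq1 the second probe set, 161796_r_at, differed by 0.059 (adjusted p = 0.77 in limma with every probe set), and the call of the tested one was lost in 8 of the 12 leave-one-out fits, with the replicate block (adjusted p = 0.0654) and without diet #1 (0.187, adjusted p = 0.238). Ddc, the aromatic amino acid decarboxylase of monoamine synthesis, fell by 1.05 ± 0.121 (log2, SE, n = 6, limma adjusted p = 0.000229). Blcap differed by -0.964 and Pon3, a paraoxonase gene, by -0.613 (limma adjusted p = 0.0357 and 0.00101). The Blcap call was lost in 8 of the 12 leave-one-out fits, at adjusted p up to 0.0758 in limma. None of the 19 was called for genotype or for diet #3 against diet #2. Of 12 genes of DNA methylation, 6 were tested, and Uhrf1, which brings Dnmt1 to newly copied DNA, and Trim28, a corepressor that protects imprints, were higher in tumor, by 0.912 and 0.692 (limma adjusted p = 0.0013 and 0.00155). The tested Dnmt1 probe set differed by 1.05 ± 0.402, short of the threshold (adjusted p = 0.0708 in limma). Without the diet #1 Dnmt+/+ tumor, the 1 diet #1 array above the floor, it differed by 0.616 and passed (adjusted p = 0.0171 in limma), and without all diet #1 arrays by 0.736 (adjusted p = 0.00503 in limma). The second Dnmt1 probe set, 161601_i_at, differed by -0.214 with every probe set and no filter (adjusted p = 0.489 in limma).

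The members' profiles were set against each other and against all named features as Pearson correlations of log2 values after each diet's mean was removed, over 12 arrays. They share arrays and the tissue difference, so they are descriptions. Dcn and Cdkn1c correlated at 0.863, the H19 probe set and Dcn at 0.772, the H19 probe set and Cdkn1c at 0.759, and Phlda2 and the H19 probe set at 0.755. With tissue, genotype and diet removed these were 0.069, -0.46, 0.022 and 0.426. Igf2 and the H19 probe set correlated at 0.495 before and 0.742 after this removal. Igf2 was at the floor of 50 on all 4 diet #1 arrays, so its correlations rest mainly on the 8 arrays of diets #2 and #3. The named feature most like each member was Nop2 for Phlda2 (0.973), Plaur for Cdkn1c (0.975), Gnai2 for Dcn (0.975), and Eln, the elastin gene, for the H19 probe set (0.95). It was Pdlim3 for Igf2r (0.957), Fam3a for Peg3 (0.977), Ppp1r3c for Grb10 (0.981) and Crybb2 for Igf2 (0.855).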

How the data were processed

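Per the labels' protocols, total RNA was hybridised to Affymetrix MG_U74Av2 arrays. The authors deposited 1 linear intensity for each of 12488 probe sets on each of 12 arrays; how probes were summarised is not stated in the sources used here. The number of arrays, rather than a read depth, limits the precision.

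After 66 control probe sets were removed, the intensities were quantile normalized, values under the 20th percentile (44.77) were raised to it, and log2 was taken. Values tied at 50 in diet #1 fall to about the floor, so a step from 50 to 51 counts as a large difference on this scale. The filter removed the dimmest 40% of probe sets by mean over all arrays, and each gene was represented by its brightest one, giving 6400 features, 5648 with a gene name. Tests were run with limma 3.58.1 in R 4.3.3 (lmFit and eBayes) with tissue, diet and genotype as terms, all 12 arrays, Benjamini-Hochberg adjustment and a threshold of 0.05, and were tested on simulated data. Differences are on this log2 scale; ratios in the text are of deposited intensities.

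The members and lists were chosen with earlier results of these data known. All 10 members were named with all their probe sets; of the other imprinted genes, those past the threshold. Dnmt1 was named as a check of the genotype, and the best-correlated named features as a description. Ascl2, Osbpl5 and the other chromosomal neighbours, and the marker genes printed as examples, were picked with their values in view.

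The sample code in the titles pairs a normal with a tumor array. Deviations from tissue means correlated at 0.463 to 0.677 within codes, and at -0.574 to -0.38 after diet and genotype were removed. In this layout, removing these terms makes values within a code correlate negatively even for independent arrays. The second range therefore does not tell whether a code is 1 animal. Each code is 1 combination of diet and genotype, so a shared sample cannot be told apart from the shared diet and genotype. No 2 arrays of a tissue correlated above 0.982. Promoter and microRNA sequences are from RefSeq tables of GRCm38.p6. Alternatives were the normalization, the floor, the filter, every probe set, the variance model, the sample code as a block, leaving out diet #1 or diet #2, and each array in turn; every probe set with no filter, and all alternatives for Dnmt1, Kcnq1 and Blcap, were added after the data were seen.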

Additional observations from a re-analysis of the deposited data

Results flagged for a closer look

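Among 16 groups of 6 arrays examined for a lone extreme array, 2 were flagged, where chance flags about 1 in 20. The Phlda2 level of the Dnmt+/- normal array of diet #1 was 5.613 (normalized log2), beside 6.719 to 7.366 on the 5 other normal arrays; its deposited value is the file's floor of 50. The Cdkn1c level of the Dnmt+/+ normal array of diet #2 was 7.53, beside 7.983 to 8.18.

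In 3 comparisons of diets both pairs of one diet moved one way and both pairs of the other the opposite way, and the pairwise difference itself was not tested. Every pair of the 3 diets was examined in each of the 8 tested probe sets. With so few array pairs in a diet, opposite directions also arise at random, and how often was not counted. For Igf2r the mean tumor difference of diet #2 (0.132) exceeded that of diet #3 (-0.406) by 0.538 and that of diet #1 (-0.695) by 0.827. For Grb10 that of diet #3 (0.43) exceeded that of diet #1 (-0.334) by 0.764. The interaction of tissue with diet over all 3 diets did not pass for either gene, as given in the report.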

How the results depend on the processing

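Cdkn1c and Dcn kept their call in all 23 alternatives to the tissue fit, at 0.599 to 0.902 and 0.438 to 0.779. Phlda2 lost it without diet #2 (1.226) and the H19 probe set without diet #1 (0.825). The causes of these changes were not tested, beyond the smaller number of arrays. Members called were 3 or 4 in each alternative for tissue, and 0 in all for genotype, diet #3 against diet #2 and tissue by genotype. The low signal of Mest, of the dimmer probe sets and of diet #1 limits what could be measured. The median difference of all features was -0.099 with median scaling and 0.132 without normalization, with 847 and 1358 features higher in tumor.

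Without diet #2, 1286 features (650 higher) were called for tissue. Genotype calls numbered 3 with median scaling, the higher floor, trended robust variances or the replicate block, 2 without normalization, 0 with no filter, without diet #1, without diet #2, or with every probe set and no filter, and 0 to 2 with an array left out. Diet #3 against diet #2 gave 90 calls without normalization, 594 with the replicate block, 515 with every probe set and no filter, and 21 to 222 with an array left out. Tissue by genotype gave 1 call without diet #1 and 0 to 1 with an array left out. Tissue by diet gave 146 calls with no filter, 49 without diet #1, 0 without diet #2, 187 with every probe set and no filter, and 50 to 222 with an array left out, among them 0 to 1 of the members. With the sample code as a block, the paired fit gave 2105 calls for tissue. Fits with the code as a random block gave 0 for tissue by genotype and 95 for tissue by diet. No member's call changed in these fits.

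Changes of sign were all in differences that did not pass. For tissue, Grb10 was 0.03 without diet #1, 0.048 without diet #2 and -0.192 to 0.003 with an array left out, and Igf2 -0.073 with median scaling and -0.066 to 0.099 with an array left out. For genotype, Phlda2 was 0.168 with median scaling, 0.085 without normalization, 0.077 with the higher floor, 0.074 without diet #1 and -0.314 to 0.218 with an array left out. Cdkn1c was -0.066 without normalization, -0.099 without diet #2 and -0.047 to 0.121 with an array left out, Igf2r -0.048 without normalization, and Peg3 -0.132 to 0.092 with an array left out. For diet #3 against diet #2, Dcn was 0.021 with median scaling and Grb10 -0.009 with the higher floor. With an array left out the range was -0.237 to 0.234 for Phlda2, -0.096 to 0.016 for Dcn, -0.11 to 0.17 for Grb10 and -0.059 to 0.144 for Igf2r. For tissue by genotype, Phlda2 was -0.029 without diet #1 and -0.061 to 1.1 with an array left out.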
